A study of Mus musculus with 4 samples.

Results

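The genes described here are 10 genes of the m6A pathway, which places, reads and removes a methyl group on adenosines inside messenger RNA. They are the writers Mettl3, Mettl14 and Wtap, the readers Ythdf1, Ythdf2, Ythdf3, Ythdc1 and Ythdc2, and the erasers Fto and Alkbh5. Peaks of the histone mark H3K36me3 were taken as theirs when the authors' annotation gave them one of these names and a class other than intergenic. The rule found 94 of 95750 peaks in the H2A.z1cKO library and 30 of 36820 peaks in the wild-type (WT) library, with at least 1 peak for each of the 10 genes in both libraries.

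The study immunoprecipitated H3K36me3 from forebrain neural progenitor cells of C57BL/6 mouse embryos at embryonic day 13. The group called cKO here carries the label H2A.z1cKO, and the series title describes a deletion of the histone variant H2A.z restricted to the brain. The other genotype is WT forebrain of the same day, with no other allele or agent named for either genotype. Each genotype has 1 ChIP library and 1 input library, 4 libraries in all, so no difference has a replicate check and no p-value is given. The Cre driver and the number of embryos pooled are not given in the sources used here. In such bulk material, more of the mark per cell and more cells that carry it cannot be told apart.

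H3K36me3 is laid down by SETD2, which travels with elongating RNA polymerase II, so the mark lies over the bodies of transcribed genes and not at their promoters. METTL3 is the catalytic subunit of the m6A writer, METTL14 its RNA-binding partner and WTAP the adaptor that holds the complex in nuclear speckles, and METTL14 is known to recognise H3K36me3. In the mouse forebrain, loss of Mettl14 is known to lengthen the cell cycle of radial glia, and loss of the reader Ythdf2 to impair neurogenesis.

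Promoter sequences are shown to mark where the mark was missing. Of the 10 genes, 7 had a window of 250 bases before to 50 bases after the start site in the RefSeq table used (GRCm38.p6). They were Mettl3, Wtap, Ythdf1, Ythdf2, Ythdc1, Fto and Alkbh5. Peaks covered 0 bp of each of the 7 windows, in cKO and in WT alike. Among genes of 5 kb or more with a peak in the body and a window in the table, 54 of 7146 (0.756%) in cKO and 8 of 5209 (0.154%) in WT had a peak in the same window, so empty promoters were the rule and not particular to these genes. The windows printed belong to the writer, the reader and the eraser with the highest coverage in cKO, those of Wtap (chr17:12992494-12992793, minus strand), Ythdf1 (chr2:180920887-180921186, minus strand) and Alkbh5 (chr11:60537433-60537732, plus strand). Each runs 5′ to 3′ on the strand of its gene, and capitals mark, on either strand, the GC box (letters GGGCGG), the box named for its letters CCAAT, and the core of ETS factor sites (letters CCGGAA).
Wtap: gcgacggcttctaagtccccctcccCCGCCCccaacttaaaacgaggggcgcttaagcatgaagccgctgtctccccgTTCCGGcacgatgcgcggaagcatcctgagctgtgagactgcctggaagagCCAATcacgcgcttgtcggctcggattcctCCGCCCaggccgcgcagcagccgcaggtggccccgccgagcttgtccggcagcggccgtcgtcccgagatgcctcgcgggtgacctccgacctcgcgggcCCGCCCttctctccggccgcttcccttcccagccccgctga
Ythdf1: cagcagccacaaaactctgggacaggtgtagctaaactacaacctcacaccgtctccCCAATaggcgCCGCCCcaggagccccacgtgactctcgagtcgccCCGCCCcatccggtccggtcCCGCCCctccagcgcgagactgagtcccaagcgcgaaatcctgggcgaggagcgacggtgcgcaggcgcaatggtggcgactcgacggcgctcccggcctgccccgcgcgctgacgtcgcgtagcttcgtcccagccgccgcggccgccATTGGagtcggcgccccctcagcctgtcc
Alkbh5: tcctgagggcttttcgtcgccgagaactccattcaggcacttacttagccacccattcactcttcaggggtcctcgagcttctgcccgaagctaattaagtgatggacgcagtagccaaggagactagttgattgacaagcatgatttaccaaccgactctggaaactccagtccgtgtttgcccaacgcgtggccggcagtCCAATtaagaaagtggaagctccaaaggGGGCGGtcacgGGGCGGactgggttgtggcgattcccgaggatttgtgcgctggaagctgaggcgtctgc
No window of the 7 held the TATA box letters TATAAA, which 13.3% of all 17492 promoter windows held. The CCAAT letters were found in 3 of 7, against 39.2% of all windows. The GC box was found in 5 of 7 (46.3% of all windows), and the ETS core in 2 of 7 (19.1% of all windows). The Wtap and Ythdf1 windows held 35 and 37 CpG dinucleotides and the Alkbh5 window held 18, against a median of 13 over all windows. These are letter matches only.

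The first peak inside the gene lay 1683 bp beyond the promoter window in Ythdf2 and 1906 bp in Ythdf1 in cKO, and 2861 bp and 2892 bp in WT. In Ythdc1 the gap was 11628 bp in cKO and 11624 bp in WT, nearly the same point of the gene. Mettl3 had its first peak 4476 bp beyond the window in cKO and 4781 bp in WT. The start site of that Mettl3 window lies 3617 bp inside the gene's RefSeq span, so the window leaves out the span's outermost 5′ end. A cKO peak of class intergenic lay just before that end, from -450 to -13 bp relative to it. The annotation nevertheless classed 5 of the 94 cKO peaks and 4 of the 30 WT peaks as promoter-TSS. None of these lay in a promoter window shown or counted above, and the peaks of that class in Mettl3, Wtap and Ythdc1 all lay inside the gene body.

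Each gene was then measured by its coverage, the percentage of the gene body (RefSeq span, GRCm38.p6) that lay inside merged peaks. Genes with a body of 5 kb or more were called when the cKO value stood 10 percentage points or more above (higher) or below (lower) the WT value. By that rule 7 of the 10 genes were higher in cKO and 0 were lower. Ythdf3, Ythdc2 and Fto were not called, although their values also lay above WT. The median coverage of the 10 genes was 28.9% in cKO and 3.62% in WT, and the median difference was 19.5 points.

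Most other genes with a WT peak were higher in cKO too. Of 16802 protein-coding genes of that size, 5491 (32.7%) were higher in cKO and 0 (0%) were lower. Among the 6400 of them with a WT peak, as all 10 genes have, 4817 (75.3%) were higher, so 7 of 10 (70.0%) was near the background. The median difference among these WT-marked genes was 22.9 points, with coverage medians of 29.0% in cKO and 3.96% in WT. All 10 genes were marked, that is had a peak over the body, in both libraries, beside 52.2% of the 16802 genes in cKO and 38.1% in WT. The genes were chosen with earlier results of these data known, so this count cannot be read as an excess over those shares.

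The libraries themselves differed in the same direction. The cKO list held 95750 peaks over 69.1 Mb and the WT list 36820 peaks over 13.3 Mb, ratios of 2.60 and 5.18. The number of ChIP tags was similar, at 32927164 in cKO and 31984670 in WT, and the inputs held 35026817 and 38500353 tags. The fragment length, which sets the narrowest possible peak, was 185 bp in cKO and 152 bp in WT. The part of these library differences in the members' differences was not tested. As a check of the tissue label, 9 of 10 radial glia and progenitor markers had a peak in cKO and 7 in WT, as did 3 and 2 of 8 neuronal markers. Fabp7 had no peak in either library, and Hes1 (9.80% in cKO) and Slc1a3 (1.90% in cKO) had 0% in WT. Among genes of 5 kb or more, 52.2% had a peak in cKO and 38.1% in WT, but only 5 of the 10 progenitor markers are that long. Of 7 microglia and blood markers, only Csf1r had a peak, with coverage of 7.02% in cKO and 0% in WT, and 0 of 5 endothelial markers had one in either library.

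When only the strongest cKO peaks were used, as many as together covered the length of the WT list, 1 of the 10 genes was still higher (Ythdf1) and 0 were lower, and the median difference was -0.178 points. Over the 16802 genes, with or without a WT peak, 4.82% were then higher and 2.22% lower. The median difference over the 6400 genes with a WT peak was then -0.894 points. In that comparison 6 of the 10 genes (Mettl3, Mettl14, Ythdf3, Ythdc1, Ythdc2 and Fto) had less coverage in cKO than in WT, and Ythdf1 (12.4 points), Wtap (6.56 points), Ythdf2 (1.78 points) and Alkbh5 (0.706 points) had more. With as many cKO peaks as WT had, again the strongest, 4 genes were higher (Mettl3, Wtap, Ythdf1 and Alkbh5) and each of the 10 had more coverage in cKO than in WT. The share of all genes called at that number of peaks was not computed, so these 4 calls have no background beside them.

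**Figure D1:**
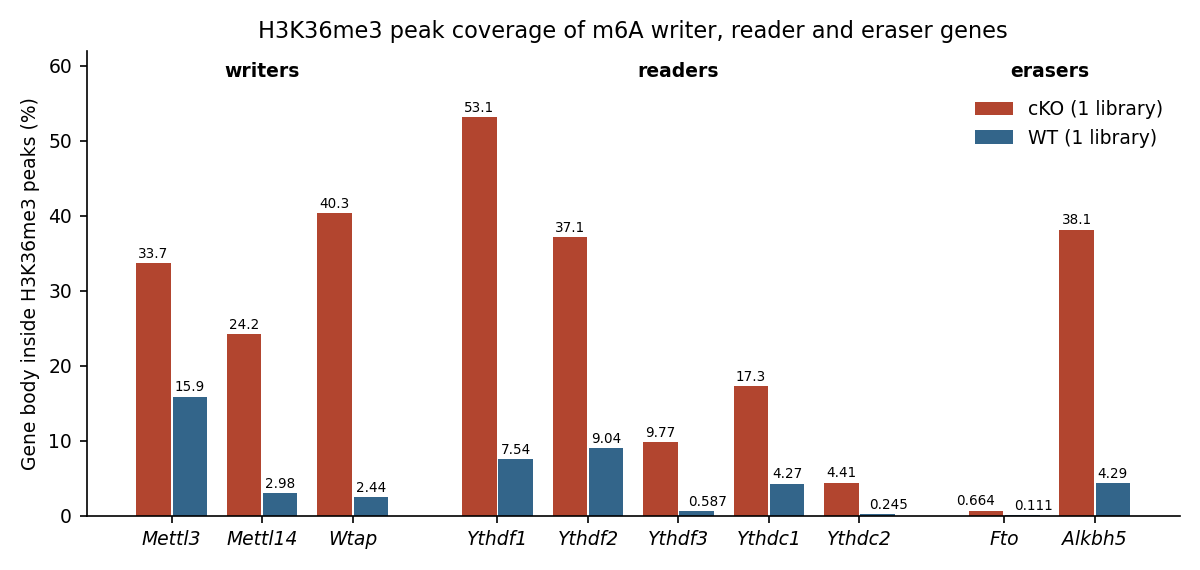
Bars give the percentage of each gene body inside H3K36me3 peaks (y axis) for the 10 genes (x axis, by role) in the cKO library and the WT library, with no error bars because each genotype has 1 library. Every cKO bar is taller than its WT bar, and Ythdf1 has the highest cKO value at 53.1% and Fto the lowest at 0.664%.

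Among the writers, all 3 genes were higher in cKO, with a median coverage of 33.7% in cKO and 2.98% in WT. Mettl3 (chromosome 14, 52294841 to 52308741, minus strand) encodes the methyltransferase itself. It had 6 assigned peaks in cKO and 7 in WT, the only one of the 10 genes with fewer assigned peaks in cKO, but 5 peaks in cKO and 4 in WT over its body. Its coverage was 33.7% in cKO and 15.9% in WT, the highest WT value of the 10. The median peak over its body was 1033 bp wide in cKO and 483.5 bp in WT, and 1 cKO peak of 3046 bp overlapped 3 WT peaks. With peaks within 3 kb joined, Mettl3 differed by 2.19 points and was not called.

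All covered bases of Mettl3 lay past the middle of its RefSeq span, toward the 3′ end, in both libraries. No peak lay in the first 8142 bp of the span in cKO and the first 8447 bp in WT. The span begins 3617 bp before the start site of the promoter window, and positions from that start site were not computed. At its 3′ end Mettl3 overlaps Tox4, a gene for a chromatin protein of the opposite strand, by 669 bp. Peaks covered 669 bp of that overlap in cKO and 561 bp in WT. The 3046 bp peak in cKO and the 3 WT peaks it spans carry Mettl3's name in the annotation but lie in Tox4 beyond the end of Mettl3. Which of the genes the mark belongs to cannot be told apart there.

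Mettl14 (chromosome 3, 123368295 to 123385990, minus strand) had 11 assigned peaks in cKO and 2 in WT. Its coverage was 24.2% in cKO and 2.98% in WT, a difference of 21.2 points. Both WT peaks, in intron 5 and exon 7, had a cKO partner. The cKO peaks without a WT partner included 3 of class TTS (transcription termination site) in the last part of the gene, 405 to 809 bp wide. A further 2 of the 11 cKO peaks lay past the 3′ end of Mettl14, 1 of them inside Sec24d, the gene for a coat protein of secretory vesicles.

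Wtap (chromosome 17, 12966799 to 12992543, minus strand) showed the widest gap in number. It had 15 assigned peaks in cKO and 1 in WT, and 20 and 2 peaks over its body. Coverage was 40.3% in cKO and 2.44% in WT. In cKO the peaks followed each other from intron 1 to the last exon, whereas WT had 1 peak of 172 bp near the middle and 1 of 457 bp in exon 8 of 8. Of the 20 cKO peaks, 5 carried the name Gm15946 in the annotation, as did 1 of the WT peaks.

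**Figure D2:**
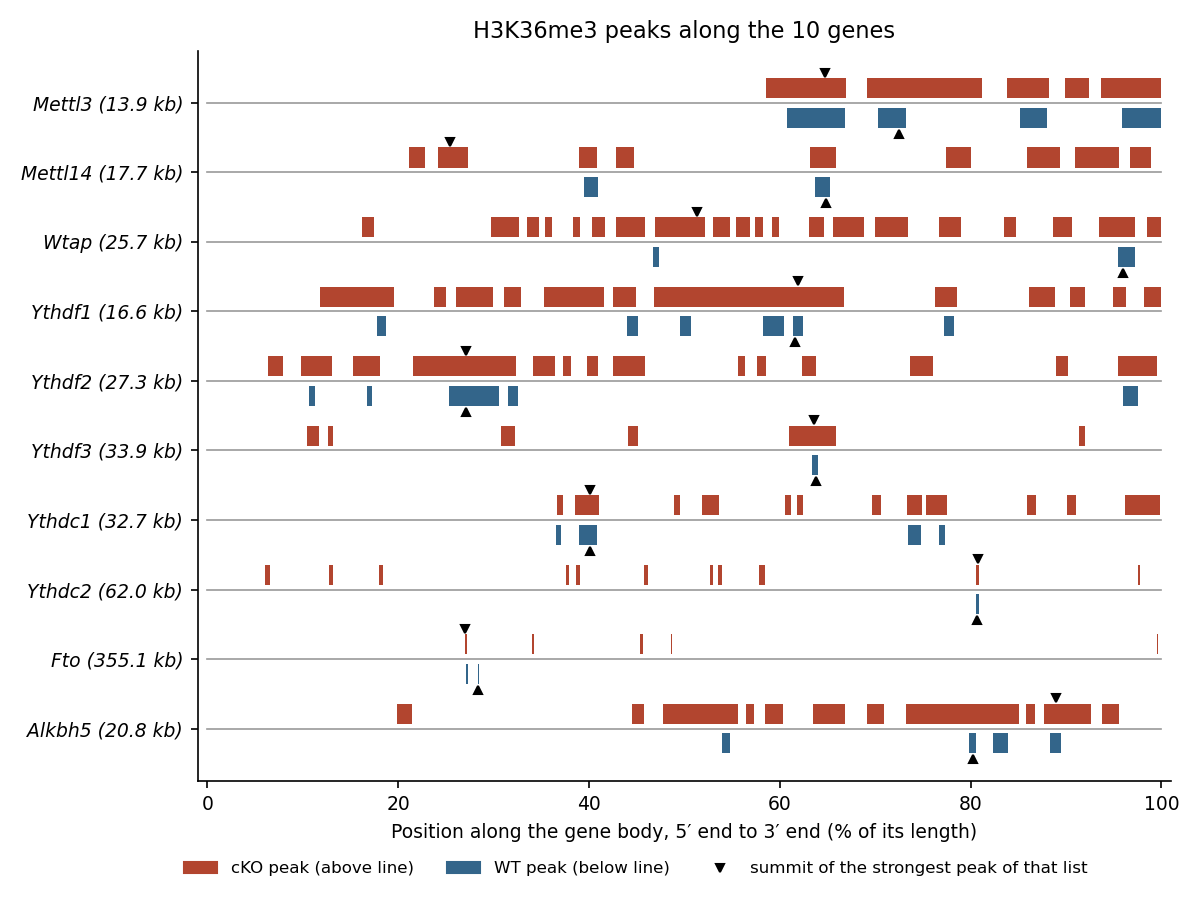
Peaks are drawn to scale along each gene body (x axis, percentage of its length from the 5′ end to the 3′ end), with cKO peaks above and WT peaks below each line, and triangles mark the summit of the strongest peak of each list. The triangles sit together in the 5 readers and farthest apart in Mettl14 and Wtap, they lie close in Fto because the axis is relative to its length, and Mettl3 has peaks only past its middle.

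The readers held both ends of the cKO range among the genes other than Fto, and 3 of 5 were higher in cKO. Their median coverage was 17.3% in cKO and 4.27% in WT. Ythdf1, Ythdf2 and Ythdf3 encode paralogous cytoplasmic proteins that bind methylated messenger RNA, and their levels were far apart. Ythdf1 (chromosome 2, 180904377 to 180920936, minus strand) had the highest cKO coverage of the 10 genes, at 53.1% in cKO and 7.54% in WT. It had 8 assigned peaks in cKO and 6 in WT, and 1 cKO peak of 3299 bp, the widest over any of the 10 genes, contained 3 separate WT peaks of 176 to 364 bp.

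Ythdf2 (chromosome 4, 132184916 to 132212256, minus strand), the reader tied to decay of methylated transcripts, had 15 assigned peaks in cKO and 5 in WT. Its coverage was 37.1% in cKO and 9.04% in WT. Here the covered bases lay toward the 5′ end, with 29.6% of them past the middle in cKO and 17.6% in WT, the opposite of Mettl3. Ythdf3 (chromosome 3, 16183148 to 16217037, plus strand) had 6 peaks in cKO and 1 in WT. Its coverage was 9.77% in cKO and 0.587% in WT, and the difference of 9.18 points fell just short of a call. Just inside the same threshold, Ythdc1 differed by 13 points.

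In WT the strongest peak of all 3 Ythdf paralogues was annotated to the penultimate exon, and in cKO that of Ythdf2 and Ythdf3. In Ythdf2 it was the peak over exon 4 of 5, which spanned 2960 bp in cKO and 1434 bp in WT. It had the highest -log10 q of any peak over the 10 genes within each list, at 54.0 in the cKO list and 16.9 in the WT list. In Ythdf3 it lay at exon 5 of 6, with 1662 bp in cKO and 199 bp in WT, where it was the sole peak. In Ythdf1 the strongest WT peak lay at exon 4 of 5 and fell inside the 3299 bp cKO peak. That cKO peak was the strongest in cKO, but its class was TTS. The Ythdf1 WT peak had a -log10 q of 7.83, and the next in WT, in intron 2 of 2, had 7.06. How often other genes have their strongest peak at the penultimate exon was not computed.

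Ythdc1 (chromosome 5, 86803980 to 86836659, plus strand) encodes the nuclear reader, which acts in splicing and nuclear export. It had 13 assigned peaks in cKO and 4 in WT, and its coverage was 17.3% in cKO and 4.27% in WT. The first peak inside the gene began 11963 bp from its start in cKO and 11959 bp in WT. Its strongest peak, over exon 4 of 16, spanned 814 bp in cKO and 603 bp in WT, and the summits lay 1 bp apart.

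Ythdc2 (chromosome 18, 44827730 to 44889720, plus strand) encodes an RNA helicase with a reader domain that is needed for meiosis in germ cells. It had 11 assigned peaks in cKO and 1 in WT, with coverage of 4.41% in cKO and 0.245% in WT. Its cKO peaks were narrow, with a median of 243 bp, and the sole WT peak had the minimum width of 152 bp. That WT peak and the strongest cKO peak, 224 bp wide, lay at exon 26 of 30 with summits 16 bp apart.

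The erasers Fto and Alkbh5 differed widely in length. Fto (chromosome 8, 91313367 to 91668433, plus strand), the demethylase gene known for its association with body mass, spans 355067 bp. It had 5 assigned peaks in cKO and 2 in WT. Coverage was 0.664% in cKO and 0.111% in WT, the lowest of the 10 genes in both, and no peak lay in the first 95876 bp in cKO or the first 96332 bp in WT. Fto also held the sole WT peak of the 30 with no cKO peak over it, a peak of 164 bp in intron 3 of 8 (chromosome 8, 91414091 to 91414254) that was the stronger of its 2 WT peaks by q.

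Alkbh5 (chromosome 11, 60537683 to 60558512, plus strand) encodes the nuclear demethylase specific for m6A. By the annotation it had 4 peaks in cKO and 1 in WT, the lowest cKO count of the 10 genes. Over its body, however, lay 11 peaks in cKO and 4 in WT, of which 7 and 3 carried the name Gm12622. Its coverage was 38.1% in cKO and 4.29% in WT from all peaks over the body, and 11.6% in cKO and 0.883% in WT from those that carried its own name. Alkbh5 was called higher either way.

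The choice of peaks by name thus left out part of the signal over some genes. Over the 10 bodies lay 106 peaks in cKO and 31 in WT, of which 17 and 4 had another gene's name. Besides Alkbh5 and Wtap these were 4 peaks of Ythdf1 named Gm27032 and 1 of Fto named Gm3235, all in cKO. Conversely, 5 assigned peaks in cKO and 3 in WT lay outside the body of the gene they name. Together the bodies held 60277 bp of peaks in cKO and 10114 bp in WT, a ratio of 5.96, beside 5.18 for the whole lists.

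Among the 10, longer genes had lower coverage, which is itself a share of gene length. Across the 10 genes Spearman's rho between length and coverage was -0.76 in cKO and -0.79 in WT, a description over genes that share their library. It was not computed over other genes. The 3 longest, Fto, Ythdc2 and Ythdf3, are the 3 that were not called. Peaks per 10 kb of body ran to 7.77 in Wtap in cKO, against 0.777 in WT, and were lowest in Fto, at 0.169 in cKO and 0.0563 in WT.

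**Figure D3:**
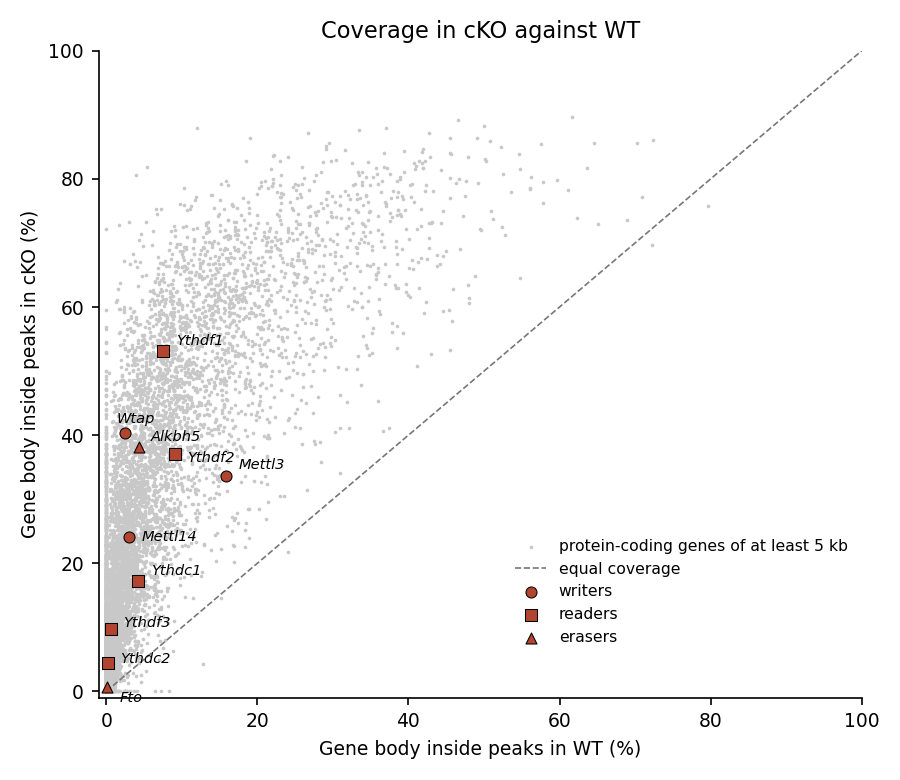
Each grey point is a protein-coding gene of 5 kb or more, with the percentage of its body inside peaks in cKO (y axis) and in WT (x axis), and the filled symbols are the writers, readers and erasers. All 10 lie above the dashed line of equal coverage, within the cloud of other genes, and Mettl3 lies nearest to the line relative to its WT level.

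The peaks of the 10 genes were compared next by position. Of the 30 WT peaks, 29 (96.7%, exact Clopper-Pearson 95% interval 82.8 to 99.9%) overlapped a cKO peak by at least 1 bp, against 96.0% of all 36820 WT peaks. Among the 94 cKO peaks assigned to the genes, 24 (25.5%, interval 17.1 to 35.6%) overlapped a WT peak, against 25.3% of the whole list. These intervals cover counting error only. With a reciprocal overlap of at least 50% the WT share was 9 of 30 (30.0%, interval 14.7 to 49.4%). The share over all WT peaks, 15.5%, lay inside that interval. The assigned peaks were narrower than those of the lists, with a median width of 373 bp in cKO (439 bp over all genic peaks) and 210 bp in WT (271 bp over all genic peaks).

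Over the bodies, the 26 cKO peaks with a WT partner had a median width of 926 bp and the 80 without one had a median of 338.5 bp. A wider peak has more room to overlap a WT peak by the rule used, and the same split over all cKO peaks was not computed. Of the 80, 55 were intronic, 12 exonic, 11 at a TTS and 2 of class promoter-TSS. Among the 26 with a partner, 10 were intronic and 9 exonic. In full width the 26 cKO peaks that overlapped a WT peak held 28881 bp and the 80 without a partner held 31750 bp. Only part of the 28881 bp was marked in WT, since the 30 WT peaks with a cKO partner held 9950 bp.

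Introns held 58 of the 94 assigned cKO peaks (61.7%, interval 51.1 to 71.5%) and 11 of the 30 WT peaks (36.7%, interval 19.9 to 56.1%). Over all genic peaks the intron share was 64.0% in cKO and 50.9% in WT. Exons held 17.0% of the cKO peaks and 30.0% of the WT peaks, beside 16.1% and 23.3% of all genic peaks. The shares of the 10 genes lay close to those of the list in cKO, and in WT the list's intron share lay inside the interval.

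In each gene the strongest peak by q was found within each list. The cKO and WT strongest peaks overlapped in all 5 readers, in 0 of 3 writers and in 0 of 2 erasers. The summits lay 64 bp apart in Ythdf1, 12 bp in Ythdf2 and 40 bp in Ythdf3. In the writers they lay 1068 bp (Mettl3), 6978 bp (Mettl14) and 11502 bp (Wtap) apart, and in the erasers 4791 bp (Fto) and 1799 bp (Alkbh5). Over all genes of 5 kb or more with peaks in both libraries the strongest peaks overlapped in 2912 of 6302 (46.2%), so 5 of 10 (50.0%) was near the background. In Ythdf3 and Ythdc2 the WT list had 1 peak, which leaves no choice of the strongest, and the split by role was seen after the values were known.

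The position of coverage along the genes was set beside that of other genes, as a description. The mean position of covered bases, in percent of the gene length from the 5′ end, had a median over the 10 genes of 55.6% in cKO and 59.5% in WT. The medians over 5144 genes of 5 kb or more that were marked in both libraries and had a known strand were 65.0% in cKO and 69.0% in WT. The mean lay past the middle in 6 of the 10 genes in cKO and 8 in WT, against 90.8% of all these genes in cKO and 83.9% in WT. Ythdf2 and Fto were before the middle in both libraries, Ythdf2 at 42.7% in cKO and 38.5% in WT, and Fto at 48.5% in cKO and 27.7% in WT. Some of these positions rest on few peaks. The Fto values come from 6 peaks in cKO and from 2 in WT that covered 394 bp. In WT those of Ythdf3 and Ythdc2 come from 1 peak each, of 199 bp and 152 bp.

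A wider list of 18 genes of the writer complex, other RNA methyltransferases and other RNA readers, none among the 10, gave a similar picture. Of these 17 were marked in cKO and 16 in WT. Among the 17 with a body of 5 kb or more, 14 were higher in cKO and 0 were lower, against 32.7% and 0% of all genes. All 14 were among the 16 with a WT peak, and 75.3% of all genes with a WT peak were higher. Its median coverage was 24.2% in cKO and 5.03% in WT. The largest differences were those of Pcif1, which methylates the cap-adjacent adenosine (69.2% in cKO and 25.9% in WT), and Elavl1, an RNA-stabilising protein (46.1% in cKO and 9.73% in WT). Rbm15b, which guides the writer complex to RNA, had 69.6% in cKO and 35.2% in WT, and Hnrnpc, a nuclear RNA-binding protein, had 39.3% in cKO and 9.04% in WT. Only Trmt112, a small cofactor gene of 1331 bp, had no peak in either library. With the strongest cKO peaks up to the covered length of WT, 2 of the 17 genes were higher and 1 was lower. These shares stood beside 4.82% and 2.22% of all genes of 5 kb or more. The higher genes were Pcif1 (41.8 points) and Prrc2a (28.3 points), and the lower was Rbm15b (-35.2 points). Rbm15b had no cKO peak left in that reduced list, so its difference is its whole WT coverage.

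**Figure D4:**
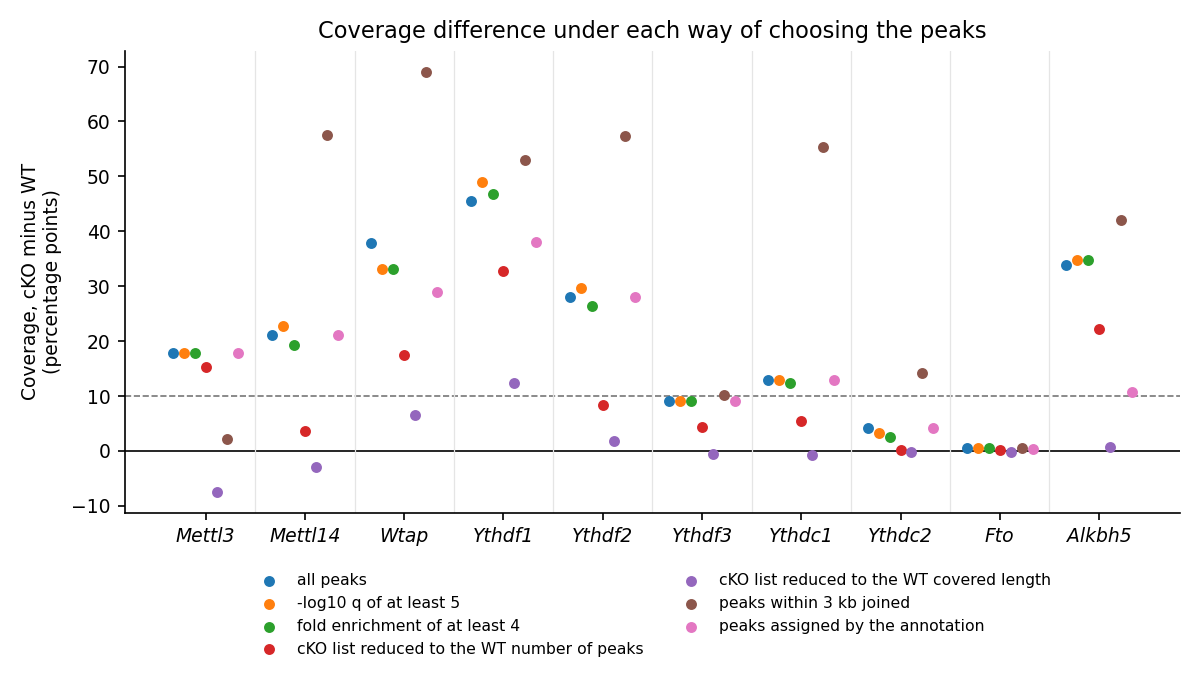
Points give the coverage difference, cKO minus WT in percentage points (y axis), of the 10 genes (x axis) under 7 ways of choosing the peaks, with a dashed line at the 10 points that make a call. The purple points, for the cKO peaks up to the covered length of WT, lie between -7.45 (Mettl3) and 12.4 (Ythdf1), and the brown points, with peaks within 3 kb joined, lie highest in Wtap and lowest in Fto.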

How the data were processed

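H3K36me3 ChIP-seq and input libraries of E13 forebrain progenitors came from 1 cKO and 1 WT preparation each. Per the submitters' processing notes, Bowtie2 2.2.9, FastQC and bedtools were used, with the build mm10. Peaks were called against input as single-end narrow peaks with MACS 2.1.1.20160309 (2.1.0 in those notes), a genome size of 1.87e+09, tags of 150 bp and 1.00e-05 as the p cutoff, per the file headers. Narrow calling of a broad mark breaks a domain into pieces that join as signal rises, so peak number and coverage both move with enrichment. The deposited lists give for each peak the pileup signal, the fold enrichment and p- and q-values as -log10, as the authors' caller made them, and these ranked or filtered peaks within 1 list only. The deposited annotation supplied gene names and classes.

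Annotated peaks were joined to the lists by chromosome, start minus 1 and end. Gene bodies were RefSeq GRCm38.p6 spans of 21779 protein-coding genes, after 108 genes with spans in the first 3 Mb of a chromosome, unsequenced in mm10, were left out. Strand came from the promoter table or, for Mettl14, Ythdf3 and Ythdc2, from the exon and intron numbers in the annotation. Peaks were merged and coverage computed with Python 3.11.15, numpy 2.4.6 and pandas 2.3.3, tested on simulated peaks. Intervals came from scipy 1.17.1 and figures from matplotlib 3.10.9. Alternatives were a fold of at least 4, a minimum -log10 q of 5, the strongest cKO peaks up to the WT number or covered length, peaks within 3 kb joined, peaks assigned by the annotation, calls at 5 or 20 points and a reciprocal overlap. The 10 genes are all named, and of the wider list the 4 with the largest difference, those against the sign of its median and those marked in neither library. Genes of the wider list called at the WT covered length are named as well. The members and lists were chosen with earlier results of these data known.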

Additional observations from a re-analysis of the deposited data

Results flagged for a closer look

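In the cKO list 6 further peaks carried the name of one of the 10 genes with the class intergenic, against 0 in the WT list, and they enter no count or comparison above. They make up 6 of the 100 cKO peaks with such a name (6.00%, exact Clopper-Pearson 95% interval 2.23 to 12.6%). The WT count of 0 of 30 allows a share of up to 10.0% (3 counts of 30), and its exact interval reaches 11.6%, so a difference was not detectable at this number of peaks. Over the whole lists 2.96% of cKO peaks and 2.21% of WT peaks were intergenic. Of the 6, 3 lay past the 3′ end of Ythdf2, up to 2548 bp beyond it, and 1 lay 1981 bp past that of Ythdf3. The other 2 lay before the 5′ end of Mettl3, from -450 to -13 bp and from -1250 to -1009 bp relative to it. The Mettl3 promoter window above did not reach that end.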

How the results depend on the processing

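With 1 library per genotype, the spread between embryos is unknown and no replicate could be left out. No paired analysis was possible because the result comes from no test. The 7 calls became 4 with the cKO list at the WT number of peaks and 1 at the WT covered length. The median difference of 19.5 points became 6.92 and -0.178 points, and 47.5 with peaks within 3 kb joined. The 94 assigned cKO peaks became 31 and 7. The share of WT peaks overlapped, 96.7%, became 30.0% under reciprocal overlap and 36.7% at the WT covered length. Over all WT peaks these shares were 15.5% and 30.7%, the latter inside the interval of 19.9 to 56.1% for the 10 genes. At that length the difference turned negative in 6 genes, the called Mettl3 (-7.45 points), Mettl14 (-2.98) and Ythdc1 (-0.786) and the uncalled Ythdf3 (-0.587), Ythdc2 (-0.245) and Fto (-0.111), and Wtap (6.56), Ythdf2 (1.78) and Alkbh5 (0.706) lost their call. Mettl14, Ythdf3, Ythdc2 and Fto then had no cKO peak. At the WT number of peaks Mettl14 (3.60), Ythdf2 (8.39) and Ythdc1 (5.45) lost theirs. With peaks joined, Mettl3 lost its call (41.4% in cKO and 39.2% in WT), and Ythdf3 (10.1) and Ythdc2 (14.2) gained one. The reduced lists held fewer cKO peaks by construction. The number of calls was 8 at 5 points and 5 at 20 points. The share of all genes called was computed only under the main rule and at the WT covered length. Calls stood at 7 with a fold of at least 4, a minimum -log10 q of 5 or peaks assigned by the annotation.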

Other observations

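Coverage is given here for 4 neighbouring genes. Tox4, whose 3′ end overlaps that of Mettl3, had coverage of 43.7% in cKO and 14.2% in WT. Sec24d, which ends beside Mettl14, had 0.577% in cKO and 0% in WT, and its sole cKO peak lay at its 3′ end, where the annotation names Mettl14. Sall2, a transcription factor gene that lies before the 5′ end of Mettl3, had 20.4% in cKO and 14.5% in WT, with 1 peak in cKO and 2 in WT. Rpgrip1l, a gene of the ciliary transition zone that starts beside the start of Fto on the opposite strand, had 1.40% in cKO and 0% in WT, with 5 peaks in cKO and 0 in WT. These neighbours were chosen after their values were seen.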
